A study of Mus musculus with 21 samples.

Results

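Ccl3, Ccl4, Ccl5 and Xcl1 are the chemokine genes usually linked to activated CD8 T cells, and their RNA was followed here in cultured mouse OT1 T cells. They were taken by gene symbol, and all 4 were among the 17516 gene symbols of the count tables. For each gene the UMI count (a UMI, or unique molecular identifier, is a tag by which copies of 1 captured RNA are counted once) was scaled to CPM, the count per 1000000 UMIs of the library. The share of cells with a UMI and the detection of pairs of these genes in the same cell were also measured.

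OT1 T cells carry a transgenic T cell receptor for a peptide of ovalbumin. The 21 single-cell libraries comprised naive CD8 cells at day 0, cells activated with beads coated with anti-CD3 and anti-CD28 and sampled at days 3 and 5 without added cytokine, and cells activated in the same way with IL-2, IL-2v or IL-15 at 5 or 50 IU/mL and sampled at days 3, 5 and 10. IL-2v is labelled as a mutant IL-2. Those with 50 IU/mL IL-2 or IL-15 in their titles carry the name of another interleukin in their treatment labels, and the titles, which fit the series' design text, were followed. All groups apart from the naive cells thus shared bead activation, and each of the 21 conditions had 1 library, so no difference has a replicate check and no p-value is given. The intervals given are exact 95% intervals that cover counting error only.

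Chemokines are small secreted proteins that attract cells through G protein-coupled receptors. Ccl3, Ccl4 and Ccl5 (also called MIP-1 alpha, MIP-1 beta and RANTES) are CC chemokines with overlapping receptor use, while Xcl1 (lymphotactin) acts through Xcr1, a receptor of cross-presenting dendritic cells. In CD8 T cells, Ccl3, Ccl4 and Xcl1 are known as genes transcribed soon after T cell receptor engagement, whereas Ccl5 RNA is known to accumulate late after activation and to be stored in memory cells.

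The 3 CC chemokine genes lie within a single cluster on chromosome 11. In the GENCODE vM21 annotation of GRCm38, the same assembly as mm10, Ccl5 spans chr11:83525778-83530518 on the minus strand with 960 exonic bases, Ccl3 spans chr11:83647844-83649355 on the minus strand with 766 exonic bases, and Ccl4 spans chr11:83662584-83664683 on the plus strand with 660 exonic bases. Xcl1 lies at chr1:164931644-164935527 on the minus strand with 523 exonic bases, of which 98 overlap the exons of Gm20743 on the plus strand. The longest transcripts of all 4 genes have 3 exons. Of the 31-base stretches of the exons, 9 of 928 of Ccl5 also occurred in another gene and none of the other 3 members did, so little sequence is shared that could move reads between genes. For the genes with a promoter entry in RefSeq (GRCm38.p6), Ccl3 and Xcl1, the 250 bases before the start are shown because both genes, like the other members, were highest in the same library. They occupy chr1:164935523-164935772 for Xcl1 and chr11:83649379-83649628 for Ccl3, both read on the minus strand, and capitals mark the matches to the NFAT core.
Xcl1: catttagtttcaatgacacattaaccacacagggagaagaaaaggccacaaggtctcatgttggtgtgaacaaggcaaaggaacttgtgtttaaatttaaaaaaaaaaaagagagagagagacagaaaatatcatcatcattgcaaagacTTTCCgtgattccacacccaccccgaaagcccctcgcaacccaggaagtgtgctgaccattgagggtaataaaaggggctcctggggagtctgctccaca
Ccl3: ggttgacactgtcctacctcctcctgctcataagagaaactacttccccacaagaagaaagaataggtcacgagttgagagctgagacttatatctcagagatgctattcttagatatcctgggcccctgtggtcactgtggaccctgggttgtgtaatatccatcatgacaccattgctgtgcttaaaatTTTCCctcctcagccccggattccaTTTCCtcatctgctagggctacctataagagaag
NFAT is a factor activated by T cell receptor signalling, and its core GGAAA, searched on both strands, matched as TTTCC at 1 place in the Xcl1 promoter (-100 to -96 from the start) and at 2 places in the Ccl3 promoter (-59 to -55 and -34 to -30). This short core occurs in 55.6% of all 32851 promoters of the table. The RUNX core TGTGGT, present in 14% of promoters, matched 1 time in each sequence. The STAT motif TTCNNNGAA (7.02% of promoters), the AP-1 motif TGANTCA (6.75%), the NF-kB motif (3 G, any 5 bases, 2 C; 45.8%) and the TATA box TATAAA (12.4%) had no match in these windows.

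The libraries held 3250 to 7105 cells and 10589950 to 32648496 UMIs, with medians of 3016 to 5065 UMIs per cell, and a library shared 90 to 181 of its cell barcodes with any of the others. Cd3d was detected in 93.0% to 99.5% of the cells of a library and Cd8b1 in 54.5% to 92.0%, against at most 1.49% for Cd4, 0.126% for Lyz2 and 0.0157% for Ncr1. Summed marker levels were 1.54 to 17.8 CPM for B cells, 0 to 12.7 CPM for CD4 T cells, 0 to 3.15 CPM for erythroid cells, 0.343 to 114 CPM for myeloid cells and 0 to 38.5 CPM for NK cells. The upper ends of the last pair came from Fcer1g, at up to 113 CPM, and Klrb1c, at up to 36.7 CPM, in the day 10 libraries with 50 IU/mL IL-2 or IL-2v. Cycling cells, defined by a UMI of Mki67 or Top2a, made up 3.01% of naive cells, 60.0% and 13.8% of cells without cytokine at days 3 and 5, and 5.21% to 86.9% of cells with cytokine.

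Ccl5 was detected in every library, and the highest level of all 4 members was found at day 5 without cytokine. Ccl5 was at 885 CPM (871 to 898) in naive cells, 177 CPM at day 3 without cytokine and 1482 CPM (1467 to 1497) at day 5 without cytokine. At day 3 the libraries with cytokine held 185 CPM (IL-2) and 140 CPM (IL-2v) and 157 CPM (IL-15) at 5 IU/mL, and 80.3, 79.1 and 140 CPM at 50 IU/mL in the same order. The day 3 libraries therefore all lay well below the naive cells. At day 5 the values in that order were 505, 199 and 602 CPM at 5 IU/mL and 57.9, 75.0 and 271 CPM at 50 IU/mL. At day 10 they were 737, 290 and 1042 CPM at 5 IU/mL and 106, 162 and 607 CPM at 50 IU/mL. From day 5 on, IL-2 and IL-15 at the low dose and IL-15 at the high dose stood above the IL-2v libraries of the same dose, and IL-2 at the high dose stood lowest. Over the 21 libraries the median was 185 CPM, and 6 of the 20 neighbours in the order of levels had overlapping intervals.

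The other members were far sparser, with 518 UMIs of Ccl3, 3888 of Ccl4 and 4113 of Xcl1 over all libraries against 196903 of Ccl5. Ccl3 ranged from 0 to 6.31 CPM with a median of 0.769 CPM and did not reach 20 CPM in any library. Ccl4 ranged from 1.49 to 35.6 CPM with a median of 4.03 CPM and reached 20 CPM in 2 libraries. Xcl1 ranged from 0 to 50.9 CPM with a median of 5.89 CPM and reached 20 CPM in 1 library. In the order of their levels, 18 of 20 neighbouring libraries overlapped for Ccl3 and 16 of 20 for each of Ccl4 and Xcl1, so most of those orders are not resolved at this depth.

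**Figure D1:**
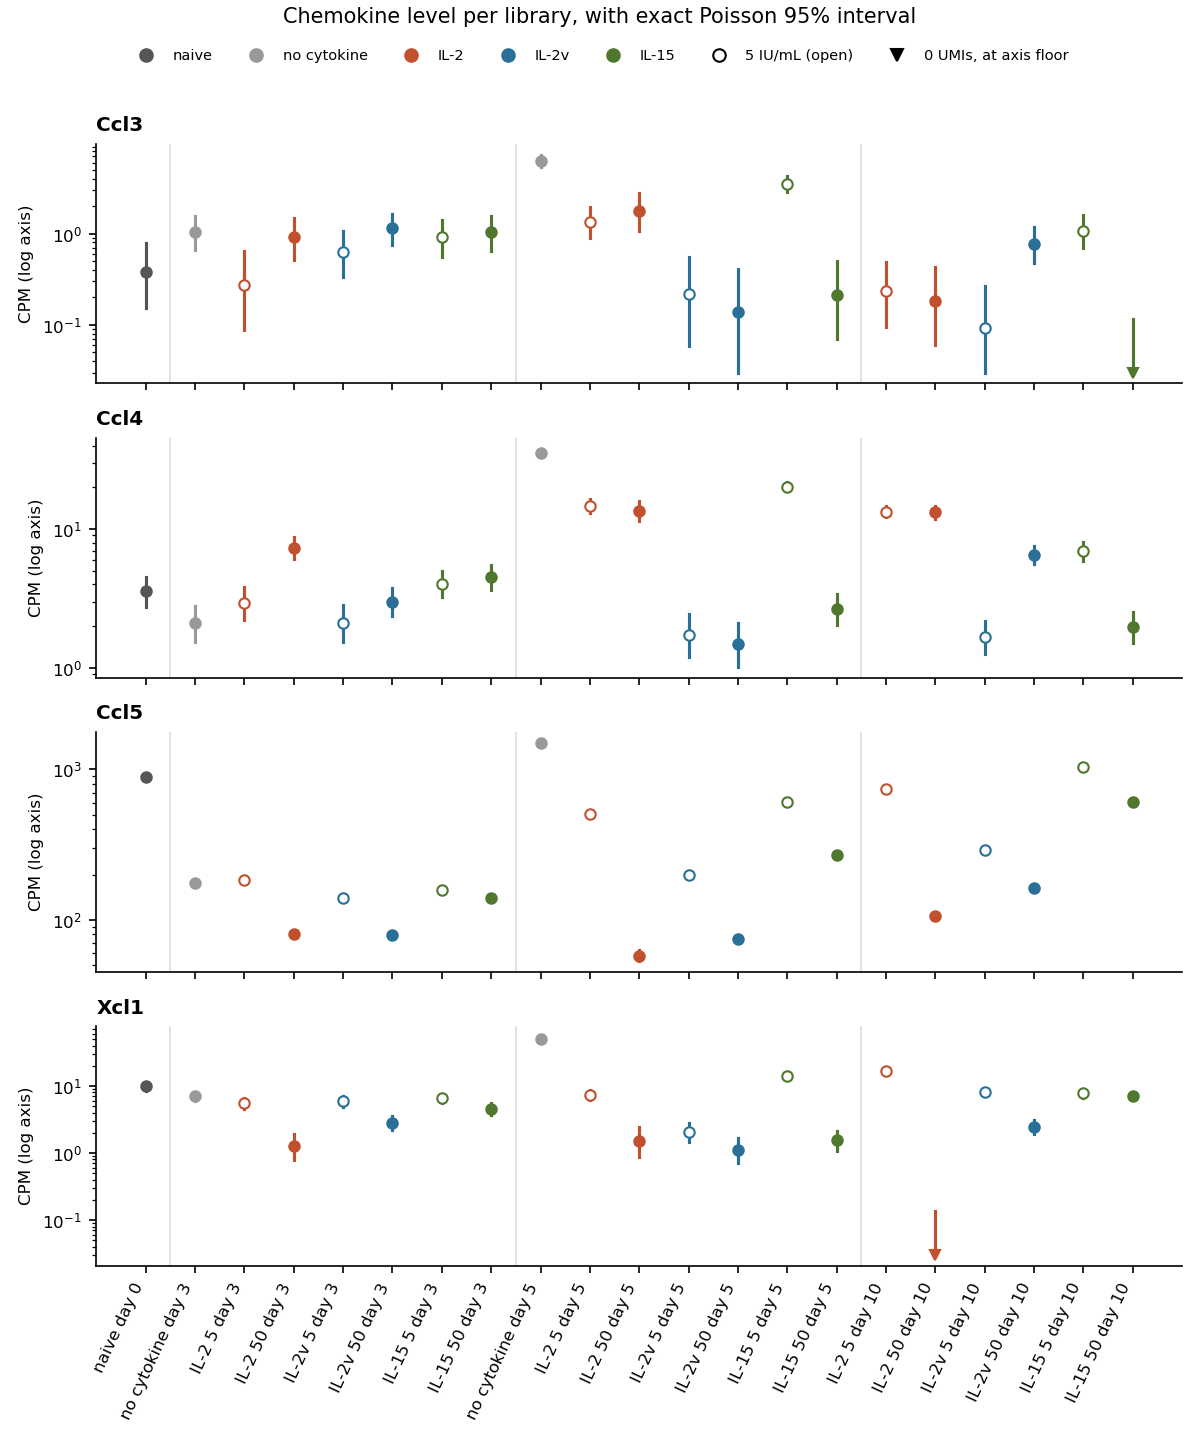
CPM of Ccl3, Ccl4, Ccl5 and Xcl1 in each of the 21 libraries, 1 panel per gene, with exact 95% Poisson intervals that cover counting error only. The library of day 5 without cytokine is the highest in CPM for all 4 genes, at 6.31, 35.6, 1482 and 50.9 CPM. The share of cells with Ccl4 or Xcl1 is highest with 5 IU/mL IL-2 at day 10.

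Ccl5 RNA dropped from 885 CPM in naive cells to 177 CPM at day 3, which is 4.99-fold lower (4.82 to 5.17; log2 difference -2.31), and then stood 8.36-fold higher at day 5 than at day 3 (8.09 to 8.64; log2 difference 3.06). Ccl4 went from 2.11 CPM at day 3 to 35.6 CPM at day 5, 16.9-fold higher (12.6 to 23.1), and Xcl1 from 7.06 to 50.9 CPM, 7.21-fold higher (6.10 to 8.56). Ccl3 moved the same way, from 1.03 to 6.31 CPM, below the level at which genes were counted. The day 5 library thus stood above the day 3 library for every member. Against naive cells the day 3 library was lower for Ccl5, Ccl4 (2.11 against 3.57 CPM) and Xcl1 (7.06 against 9.85 CPM) and higher for Ccl3 (1.03 against 0.379 CPM).

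A gene was counted as changed where it reached 20 CPM in either arm and differed at least 2-fold on the scale of log2(CPM + 1), which understates the change of low genes. Against naive cells, Ccl5 was the only member counted at day 3 without cytokine, on the lower side, where 8.31% of 6171 genes were counted, with 11.1% on the higher side. Between days 3 and 5 without cytokine, 3 of the 4 members (Ccl4, Ccl5 and Xcl1) were on the higher side, where 3.61% of 5785 genes were counted, with 9.47% on the lower side. Scaled by TMM, the latter comparison had 297 genes higher and 484 lower in place of 209 and 548. The share of cycling cells also differed between these libraries. In the cells with no UMI of Mki67 or Top2a the log2 differences were 2.66 for Ccl4, 2.58 for Ccl5 and 2.23 for Xcl1, and Ccl5 was at 1417 CPM at day 5, 236 CPM at day 3 and 815 CPM in naive cells. Leaving out of each library the single cell with the most Ccl4 UMIs gave a log2 difference of 3.12 for Ccl4.

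At day 5, all 6 libraries with cytokine stood below the library without cytokine for each of the 4 genes. Ccl5 was 2.46-fold (2.42 to 2.51) lower with 5 IU/mL IL-15, the nearest library, and 25.6-fold (23.6 to 27.8) lower with 50 IU/mL IL-2, the farthest. The median log2 difference was -2.67 for Ccl5 (-4.65 to -1.30 over the 6 pairs), -2.32 for Ccl4 (-3.88 to -0.79) and -4.22 for Xcl1 (-4.62 to -1.79), beside 0.02 over all genes. Ccl3 had a median of -2.11 but stayed under 20 CPM. The 3 counted members fell on the lower side, which held 1.67% of 5756 genes, against 6.06% on the higher side; scaled by TMM these counts were 143 lower and 289 higher in place of 96 and 349. The 6 pairs share 1 control library, so they do not count as 6 separate observations. In the cells with no UMI of Mki67 or Top2a the medians were -2.34 for Ccl5, -1.78 for Ccl4 and -4.28 for Xcl1.

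At day 3 the same contrast differed between the members. Ccl5 was at 79.1 to 185 CPM with cytokine against 177 CPM without, and only the 50 IU/mL IL-2 and IL-2v libraries were over 2-fold lower (2.21-fold, 2.07 to 2.35, and 2.24-fold, 2.12 to 2.37). Xcl1 was lower in 6 of 6 pairs, at 1.27 to 6.53 CPM against 7.06 CPM, with 5.55-fold (3.51 to 9.21) for 50 IU/mL IL-2 and intervals that include no difference in 3 of the pairs. Ccl4 was in the opposite direction in 6 of 6 pairs, at 2.12 to 7.33 CPM against 2.11 CPM, and the lowest pair was all but equal. It was 3.47-fold (2.46 to 4.97) higher for 50 IU/mL IL-2, 2.14-fold for 50 IU/mL IL-15 and 1.91-fold for 5 IU/mL IL-15. The intervals of these 3 lay above 1, and those of the other 3 include no difference. Without the cell with the most Ccl4 UMIs in each library, 4 of the 6 were higher. The 6 pairs share 1 control library, with 47 Ccl4 UMIs, so they do not count as 6 separate observations for any member. No member was counted as changed here, where 19 of 5772 genes were counted higher and 8 lower.

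The clearest dose difference was that of Ccl5 with IL-2. At 50 IU/mL Ccl5 was at 80.3, 57.9 and 106 CPM at days 3, 5 and 10, and at 5 IU/mL at 185, 505 and 737 CPM, so the high-dose libraries lie below every low-dose library. The levels were 2.31-fold (2.16 to 2.46), 8.72-fold (8.04 to 9.48) and 6.96-fold (6.70 to 7.24) lower on those days, with a median log2 difference of -2.79 beside 0.03 over all genes. Ccl5 was the only member among the 2.70% of 5879 genes counted on the lower side, which required the same sign on all 3 days; 4.29% were on the higher side. Without day 3, 5 or 10 the median was -2.95, -1.99 or -2.15. The share of cycling cells was 73.8%, 50.4% and 13.4% at the high dose and 62.8%, 18.7% and 18.2% at the low dose, and in cells with no UMI of Mki67 or Top2a the median was -2.54.

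Xcl1 differed in the same direction with IL-2 dose. It was at 5.51, 7.38 and 16.8 CPM at 5 IU/mL and at 1.27, 1.51 and 0 CPM at 50 IU/mL on days 3, 5 and 10. The levels were 4.33-fold (2.69 to 7.30) and 4.89-fold (2.91 to 8.77) lower on days 3 and 5. At day 10 with 50 IU/mL IL-2 no Xcl1 UMI was found in 4937 cells, which with 3 UMIs taken as the limit allows up to 0.110 CPM and a UMI in up to 0.0608% of cells, and says nothing of cells whose Xcl1 RNA was too low to give a UMI. Against that limit the low dose was at least 152-fold higher, and the exact 95% interval of the ratio, which also covers the counting error of the low-dose library, had a lower bound of 123-fold. Since Xcl1 stayed under 20 CPM on average, it was not among the genes counted. Ccl4 differed otherwise: 2.95, 14.7 and 13.4 CPM at 5 IU/mL and 7.33, 13.6 and 13.2 CPM at 50 IU/mL, with intervals of the ratio that include no difference on days 5 and 10.

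For the other cytokines the dose differences of Ccl5 were smaller and had the same sign on every day. With IL-2v Ccl5 was 1.77-fold, 2.65-fold and 1.79-fold lower at 50 IU/mL on days 3, 5 and 10. With IL-15 it was 1.12-fold, 2.22-fold and 1.72-fold lower. Xcl1 was also lower at the high dose on 3 of 3 days for each of IL-2v and IL-15, and the interval of the ratio excluded no difference on all 3 days with IL-2v and on days 3 and 5 with IL-15. The largest of these, 9.02-fold (6.41 to 13.1), was that of IL-15 at day 5, where 1 cell held 133 of the 417 Xcl1 UMIs at 5 IU/mL. Without the cell with the most Xcl1 UMIs in each library, the levels there were 9.50 CPM at 5 IU/mL and 1.37 CPM at 50 IU/mL. The shares of thinned cells with Xcl1 were 0.925% and 0.322%. Whether the dose differences differ between cytokines was not tested.

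**Figure D2:**
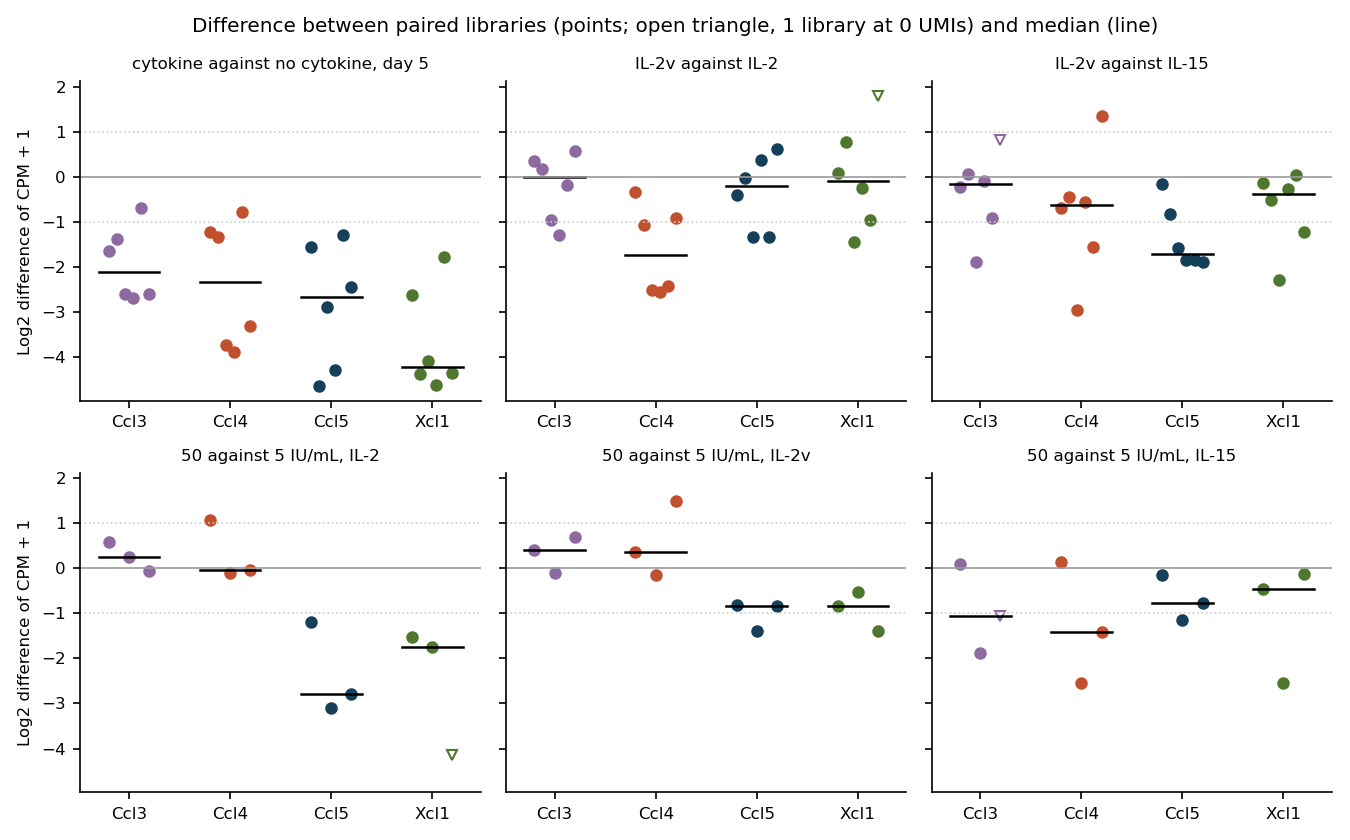
Log2 differences of each member in the pairs of libraries of equal day and dose or equal cytokine, on the log2(CPM + 1) scale; each point is 1 pair and open triangles mark pairs in which a library had no UMI of the gene. Ccl5 points lie below 0 in all 6 pairs of IL-2v against IL-15 and in all 3 pairs of 50 against 5 IU/mL IL-2, and Ccl4 points in all 6 pairs of IL-2v against IL-2, or in 5 of 6 when the cell with the most Ccl4 UMIs is left out of each library.

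Between cytokines at equal day and dose, Ccl5 was lower with IL-2v than with IL-15 in 6 of 6 pairs. The differences were 1.12-fold (1.07 to 1.18) and 1.77-fold (1.67 to 1.88) at day 3 for 5 and 50 IU/mL, 3.02-fold and 3.61-fold at day 5, and 3.59-fold and 3.75-fold at day 10. The median log2 difference was -1.71 (-1.90 to -0.17), beside 0.10 over all genes, and -1.84, -1.33 or -1.20 without day 3, 5 or 10. It was the only member counted among 0.585% of 5810 genes on the lower side, with 2.48% on the higher side. That split moved with scaling: 53 genes were lower and 87 higher with TMM, in place of 34 and 144. IL-2v libraries also held more cycling cells than the IL-15 libraries of the same day and dose, with 66.2%, 39.8% and 40.6% against 55.7%, 21.1% and 5.21% at 5 IU/mL and 86.9%, 66.7% and 25.0% against 58.2%, 24.6% and 13.1% at 50 IU/mL, and in cells with no UMI of Mki67 or Top2a the median was -1.23.

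Against IL-2, the sign of the Ccl5 difference with IL-2v differed between the doses on days 5 and 10, which was not tested. At 5 IU/mL Ccl5 was 1.33-fold, 2.54-fold and 2.54-fold lower with IL-2v on days 3, 5 and 10. At 50 IU/mL the day 3 levels were 79.1 and 80.3 CPM (ratio 0.985, 0.917 to 1.06), and IL-2v was 1.30-fold (1.18 to 1.43) and 1.53-fold (1.46 to 1.60) higher on days 5 and 10. For IL-15 and IL-2 the doses stood the other way round: the libraries lay close at 5 IU/mL, with Ccl5 1.18-fold lower, 1.19-fold higher and 1.41-fold higher with IL-15, and apart at 50 IU/mL, with IL-15 1.74-fold, 4.68-fold (4.30 to 5.09) and 5.73-fold (5.51 to 5.96) higher.

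Ccl4 was lower with IL-2v than with IL-2 at equal day and dose, while the ranges over all days and doses overlapped. With IL-2 it was at 2.95, 14.7 and 13.4 CPM at 5 IU/mL and 7.33, 13.6 and 13.2 CPM at 50 IU/mL, and with IL-2v at 2.12, 1.74 and 1.68 CPM and 3.01, 1.49 and 6.56 CPM on days 3, 5 and 10. All 6 pairs were lower with IL-2v, by 1.39-fold (0.915 to 2.12) in the smallest and 9.14-fold (6.20 to 13.9) in the largest, with 8.45-fold (5.85 to 12.6) and 7.98-fold (6.01 to 10.8) at 5 IU/mL on days 5 and 10. The smallest rests on 1 cell: without the cell with the most Ccl4 UMIs in each library, the pair at 5 IU/mL on day 3 was at 1.88 CPM with IL-2v and 1.86 CPM with IL-2, so that 5 of 6 pairs were lower and 1 higher. The median log2 difference was -1.74 beside 0.06 over all genes, and -2.47, -0.98 or -1.79 without day 3, 5 or 10. Both means, 2.77 and 10.9 CPM, were below 20 CPM, so Ccl4 was not among the genes counted. With IL-15 Ccl4 was at 4.03, 20.2 and 6.91 CPM at 5 IU/mL and 4.53, 2.66 and 1.98 CPM at 50 IU/mL.

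From day 5 to day 10, Ccl5 was higher in 6 of 6 pairs of equal cytokine and dose, by 1.46-fold for IL-2 and for IL-2v at 5 IU/mL, 1.73-fold for IL-15 at 5 IU/mL, and at 50 IU/mL by 2.24-fold for IL-15, 2.16-fold for IL-2v and 1.83-fold for IL-2. From day 3 to day 5 it was higher with IL-15 at both doses and with IL-2 and IL-2v at 5 IU/mL, 1.39-fold (1.26 to 1.53) lower with 50 IU/mL IL-2, and 75.0 against 79.1 CPM with 50 IU/mL IL-2v. The median log2 difference of day 10 against day 5 was 0.83 beside -0.09 over all genes, so Ccl5 was not counted there. In cells with no UMI of Mki67 or Top2a, Ccl5 at days 5 and 10 was at 520 and 843 CPM (IL-2), 253 and 424 CPM (IL-2v) and 620 and 1008 CPM (IL-15) at 5 IU/mL. At 50 IU/mL it was at 88.3 and 108, 147 and 174, and 307 and 658 CPM in the same order.

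Levels per library combine how many cells held Ccl5 and how much each held. Ccl5 UMIs were found in 11.9% of naive cells, 21.7% of cells at day 3 without cytokine and 54.3% at day 5 without cytokine; with cytokine the share ranged from 6.83% with 50 IU/mL IL-2 at day 5 to 52.5% with 5 IU/mL IL-2 at day 10. With every cell thinned to 2000 UMIs, which left 87.9% to 99.1% of the cells of a library, the naive share was 9.93% (9.07 to 10.8), the day 3 share 13.6% (12.6 to 14.7) and the day 5 share without cytokine 44.4% (43.1 to 45.7). Naive cells therefore had a higher level than day 3 cells with a smaller share of positive cells. A positive naive cell held 17.0 Ccl5 UMIs of 2000 on average, against 2.50 at day 3 and 6.75 at day 5 without cytokine. No cell type that lacks Ccl5 was present in numbers, so a background share from free RNA could not be read from these tables, and cells with 1 UMI are therefore given apart.

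**Figure D3:**
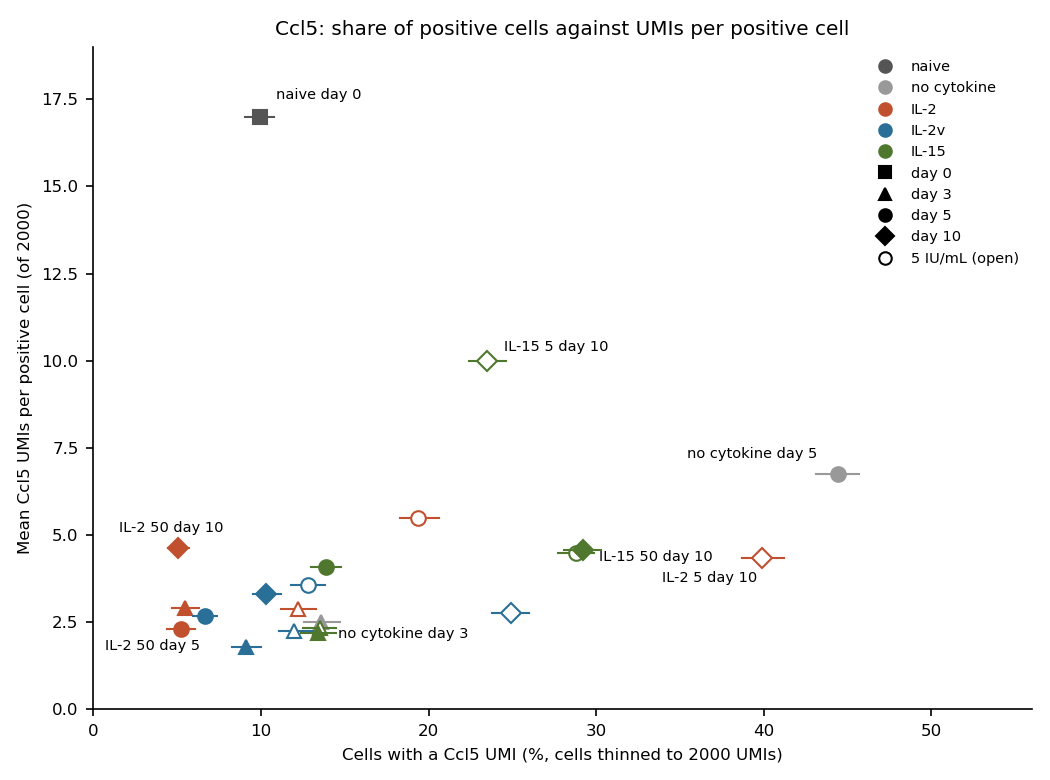
Share of cells with a Ccl5 UMI after thinning every cell to 2000 UMIs, by day, cytokine and dose, with exact 95% Clopper-Pearson intervals. The share at day 5 without cytokine is 44.4%, and that with 50 IU/mL IL-2 is 5.47%, 5.22% and 5.05% at days 3, 5 and 10.

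The distribution of Ccl5 over cells differed between libraries. In naive cells 2.08% of the thinned cells held 1 UMI and 4.34% (3.76 to 4.98) held 10 or more, and the latter carried 88.6% of the Ccl5 UMIs. With 5 IU/mL IL-15 at day 10, 5.41% of cells with 10 or more UMIs carried 80.5%, and at day 5 without cytokine 6.43% carried 65.2%. At day 10 with 5 IU/mL IL-2 the share of positive cells was higher than in the IL-15 library (39.9% against 23.5%) and the level lower, with 4.34 UMIs per positive cell against 9.99 and 41.5% of the UMIs in cells with 10 or more. At day 3 without cytokine the cells with 10 or more UMIs were 0.518% of all and held 29.9% of the UMIs.

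**Figure D4:**
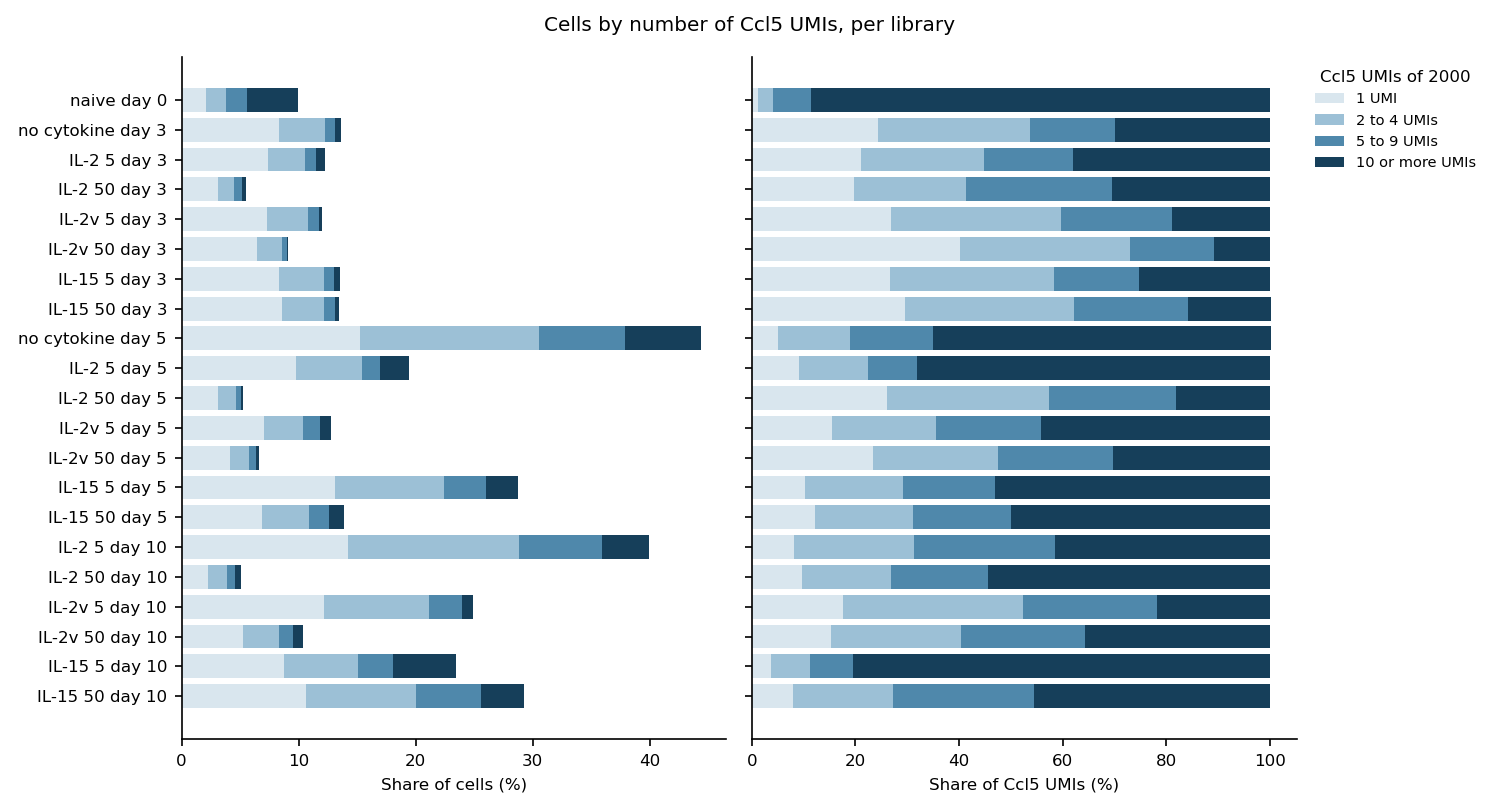
Left, share of cells with 1, 2 to 4, 5 to 9 or 10 or more Ccl5 UMIs of 2000 per library; right, share of the library's Ccl5 UMIs carried by each class. Cells with 10 or more UMIs are 4.34% of naive cells and hold 88.6% of their Ccl5 UMIs.

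In the naive cells rich in Ccl5, each of the 10 listed memory-like genes was found more often than in the other naive cells, with intervals apart, beside 5.11% of the 13897 genes with a UMI in these cells. The list was chosen with earlier results of these data known, so this count is a description and no independent support. Of the 275 thinned naive cells with at least 5 Ccl5 UMIs, 47.6% had a UMI of Il2rb (the beta chain of the IL-2 and IL-15 receptor), 32.0% of Cxcr3, 66.9% of Ly6c2 and 15.3% of the T-box factor gene Tbx21, against 10.6%, 3.93%, 15.7% and 0.548% of the 4196 others. Klrb1c, an NK cell marker, was found in 5.82% against 0.143%, Tyrobp in 2.18% against 0.0715%, Cd3d in 84.0% against 83.2% and Ncr1 in none of the 275, and the part of NK-marked cells in the result was not tested.

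Over the 17 libraries with at least 50 such cells, the number of listed memory-like genes found more often in cells with at least 5 Ccl5 UMIs ranged from 0 to 10, with a median of 3, beside 0.759% to 5.11% of all genes with a UMI. Ly6c2 was found more often in 13 of the 17 libraries, Il2rb in 6, Eomes in 5 and Cxcr3 and Tbx21 in 4 each. With 5 IU/mL IL-15 at day 10 (454 cells against 4940) Gzmk was found in 9.03% against 0.0607%, Fasl in 7.71% against 0.547%, Cxcr3 in 35.7% against 16.3% and Klrk1 in 12.3% against 0.688%, while Tcf7, a factor of less differentiated cells, was found in 30.4% against 51.3%. At day 5 without cytokine (830 cells against 5173) Id2 was found in 32.2% against 15.5%, Gzmk in 6.14% against 0.0387% and Tcf7 in 32.5% against 50.3%. At day 10 with 5 IU/mL IL-2 (678 cells against 5405) Ly6c2 was the 1 memory-like gene found more often, Eomes was found in 12.4% against 18.7%, the 1 library of the 17 in which it was less frequent with intervals apart, and cycling cells were 11.9% against 19.6%. Over all 21 libraries and taking any Ccl5 UMI, the share with Gzma was higher in Ccl5-positive cells, with intervals apart, in 16 libraries, that with Ccl4, Gzmb or Ly6c2 in 15 each, and that with Tcf7 was lower in 15; of all genes with a UMI, 0.387% to 4.87% were higher and 0.478% to 4.31% lower in a library.

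Ccl5 was also higher in cells with no UMI of Mki67 or Top2a in most libraries. The interval of the ratio lay above 1 in 17 of 21 libraries. Examples are 147 against 49.7 CPM with 50 IU/mL IL-2v at day 5 and 424 against 161 CPM with 5 IU/mL IL-2v at day 10. A ratio of 1.11 (1.08 to 1.15), with 5 IU/mL IL-15 at day 5, was also among the 17. These intervals cover counting error only, and the share of all genes with such a difference was not computed. The opposite held in 3 libraries, namely naive cells (815 against 2596 CPM, the latter from 144 cells), day 5 without cytokine (1417 against 1770 CPM) and 5 IU/mL IL-15 at day 10 (1008 against 1557 CPM).

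In 3 of the 21 libraries over 50% of the Ccl4 UMIs were held by cells with at least 5 of them, and in the other 18 such cells held 0 to 38.0%. Of the 20 libraries with a Ccl3 UMI, 16 had no cell with 5. At day 5 without cytokine 22 cells with at least 5 Ccl4 UMIs held 71.7% of the 914 Ccl4 UMIs of the library, and 1 cell held 264 of them (28.9%), beside 47 UMIs of Ccl3, 124 of Xcl1, 116 of Ccl5 and 26 of Ifng. With 5 IU/mL IL-15 at day 5, 12 such cells held 77.4% of 605 UMIs and 1 cell 211 of them, beside 41 of Ccl3, 62 of Xcl1 and 38 of Ifng. All of these cells had a Cd3d UMI and none of them had a UMI of Lyz2, Csf1r, Itgam, Adgre1, Fcer1g, Tyrobp, Ncr1 or Klrb1c. Of the 22 cells, 21 had Cd8a or Cd8b1, 18 had Ccl5, 14 Gzmb, 11 Ccl3, 10 Egr1, 9 Tnfrsf9 and 8 Xcl1. Of the 12 cells, 12 had Cd8a or Cd8b1, 11 Gzmb, 9 Ccl3, 8 Ccl5, 7 Tnfrsf9, 5 Egr1 and 4 Xcl1. These detections are not thinned, and the cells were deeper than their libraries, with medians of 7066 and 6081 UMIs against 3751 and 3633, and 7 of the 22 and 5 of the 12 were above 2 times the library median, as were 6.09% and 8.80% of all cells. Over all cells of the day 5 library without cytokine the shares were 54.3% for Ccl5, 8.43% for Gzmb, 0.851% for Ccl3, 2.65% for Egr1, 2.44% for Tnfrsf9 and 4.11% for Xcl1, and of the IL-15 library 38.2%, 25.1%, 0.394%, 2.14%, 1.90% and 1.73%. The part of depth and of doublets in these detections was not tested.

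A single cell therefore decided several of the low levels. Without the cell with the most UMIs of the gene, Ccl4 was at 25.3 CPM at day 5 without cytokine and at 13.2 CPM in place of 20.2 CPM with 5 IU/mL IL-15 at day 5, and at 1.86 CPM in place of 2.95 CPM with 5 IU/mL IL-2 at day 3. Ccl3 was at 4.48 CPM in place of 6.31 CPM, at 2.14 CPM in place of 3.51 CPM with 5 IU/mL IL-15 at day 5, and at 0.0367 CPM in place of 0.769 CPM with 50 IU/mL IL-2v at day 10, where 2 cells held all 21 UMIs. Xcl1 was at 9.50 CPM in place of 14.0 CPM with 5 IU/mL IL-15 at day 5. This alternative was chosen after seeing the data.

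In the 8 libraries with at least 50 thinned cells positive for Ccl3 or Ccl4, the listed genes of T cell receptor response were found more often in those cells in differing numbers. That list was likewise chosen with earlier results of these data known. These were 8 of 10 at day 5 without cytokine (beside 2.76% of all genes with a UMI), 8 with 5 IU/mL IL-15 at day 5 (1.59%), 4 with 5 IU/mL IL-2 at day 5 (1.33%), 1 with 5 IU/mL and 1 with 50 IU/mL IL-2 at day 10, and 0 in the other 3 libraries, where the share of all genes was 0.618% to 2.80%. After thinning, 132 cells with either gene at day 5 without cytokine had Egr1 in 11.4%, Nr4a1 in 3.03% and Tnfrsf9 (4-1BB) in 8.33%, against 1.40%, 0.187% and 0.852% of 5871 others, Gzmb in 28.0% against 4.12%, Gzmk in 16.7% against 0.528%, Ifng in 6.06% against 0.187%, and Tcf7 in 17.4% against 48.6%. With 5 IU/mL IL-15 at day 5 (78 cells against 6843) Egr1 was found in 14.1% against 1.07%, Nr4a1 in 6.41% against 0.0731%, Tnfrsf9 in 10.3% against 0.775% and Ifng in 7.69% against 0.0877%. At day 10 with 50 IU/mL IL-2, 85 such cells differed from the rest in Ccl5 (16.5% against 4.84%) and Irf8 (54.1% against 34.7%) among the listed genes.

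Xcl1 was highest at day 5 without cytokine, and its next levels were 16.8 CPM with 5 IU/mL IL-2 at day 10, 14.0 CPM with 5 IU/mL IL-15 at day 5 and 9.85 CPM in naive cells. With IL-2v it was at 5.89, 2.06 and 8.09 CPM at 5 IU/mL and 2.84, 1.12 and 2.45 CPM at 50 IU/mL on days 3, 5 and 10. With IL-15 it was at 6.53, 14.0 and 7.81 CPM and at 4.48, 1.55 and 7.12 CPM. At day 10 with 50 IU/mL, the exact intervals of the ratio to the IL-2 library without an Xcl1 UMI had lower bounds of 17.7-fold for IL-2v and 52.2-fold for IL-15. In naive cells the 51 thinned cells with Xcl1 had Ccl5 in 72.5% against 9.21% of others, Cxcr3 in 49.0% against 5.16%, Cd8b1 in 47.1% against 79.5% and Klrb1c in 15.7% against 0.317%, and the part of NK-marked cells was not tested. At day 5 without cytokine, 138 cells with Xcl1 had Tnfrsf9 in 10.9% against 0.784%, Egr1 in 8.70% against 1.45%, Cd69 in 15.2% against 5.05% and Tbx21 in 6.52% against 2.27%; their median depth before thinning was 5168 against 3759 UMIs. With 5 IU/mL IL-2 at day 10, 200 such cells had Id2 in 84.5% against 65.5% and Fasl in 25.0% against 13.3%.

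Detection of pairs in the same thinned cell was described in libraries with at least 50 positive cells for each gene. Ccl5 was more frequent in Ccl4-positive cells than in the others, with intervals apart, in 7 of 8 libraries. The shares were 73.3% against 43.8% at day 5 without cytokine, 58.0% against 28.5% with 5 IU/mL IL-15 at day 5 and 82.3% against 22.8% with 5 IU/mL IL-15 at day 10, and 47.2% against 39.7% in the exception, 5 IU/mL IL-2 at day 10. Xcl1 was more frequent in Ccl4-positive cells, with intervals apart, in 3 of 4 libraries, with 11.7% against 2.11% at day 5 without cytokine. Of all genes with a UMI, 0.574% to 2.65% were likewise more frequent in the Ccl4-positive cells of a library.

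For Xcl1 in cells with and without Ccl5, intervals lay apart in some libraries and not in others. Xcl1 was found in 8.33% (5.94 to 11.3) of Ccl5-positive naive cells against 0.348% (0.190 to 0.583) of the others, so that both were found together 7.31 times as often as the product of their shares. The ratio was 2.48 with 5 IU/mL IL-15 and 1.67 with 50 IU/mL IL-15 at day 10. At day 5 without cytokine, where both genes had their highest CPM, it was 0.979, with Xcl1 in 2.25% of Ccl5-positive cells and in 2.34% of the others. Intervals lay apart in 3 of 8 libraries, and the ratios of different libraries were not tested against each other. Of all genes with a UMI, 0.761% to 4.87% were more frequent in the Ccl5-positive cells of these libraries, with intervals apart. The ratio cannot exceed the inverse of the share of cells with Ccl5, so its size depends on that share. This share was 9.93% in naive cells, 23.5% and 29.2% with 5 and 50 IU/mL IL-15 at day 10, and 44.4% at day 5 without cytokine.

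**Figure D5:**
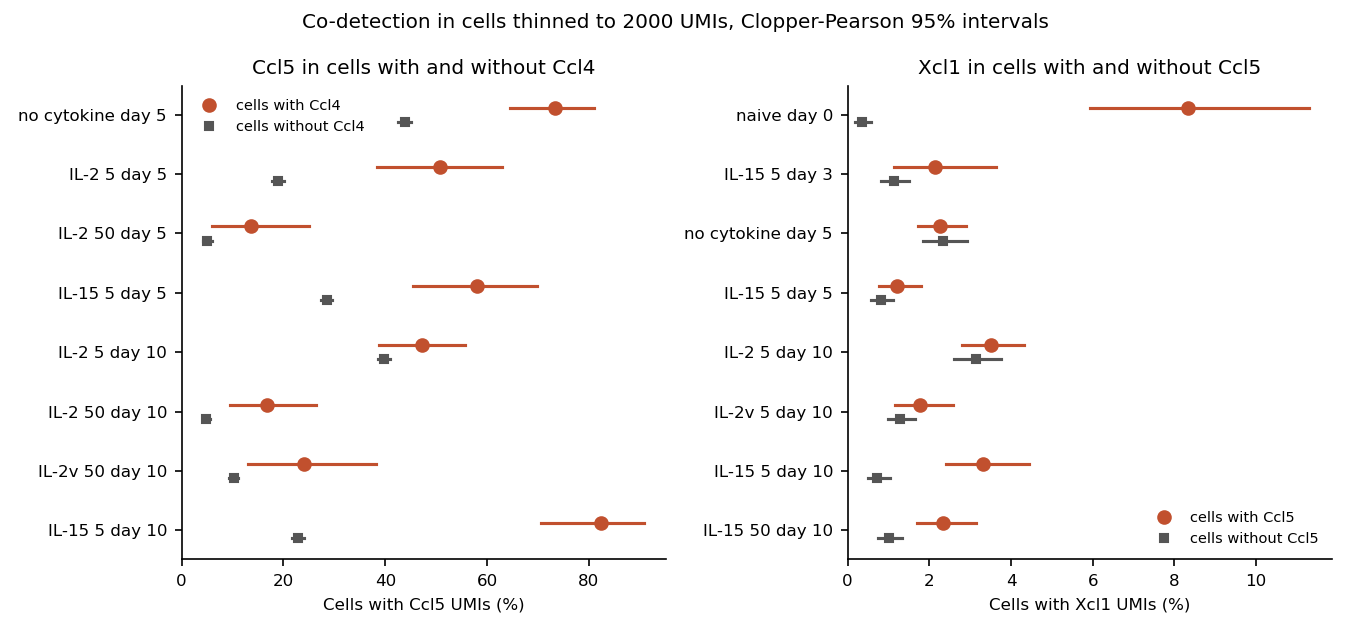
Share of thinned cells with the second gene of a pair among cells with and without the first gene, per library with at least 50 cells positive for each, with exact 95% Clopper-Pearson intervals. With intervals apart, Ccl5 stands higher in Ccl4-positive cells in 7 of 8 libraries. Xcl1 does so in Ccl5-positive cells in 3 of 8, naive cells (8.33% against 0.348%) among them.

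Of the receptors of these chemokines, Ccr1 reached 2.84 CPM, Ccr3 0.453 CPM, Xcr1 0.470 CPM and Ackr1 0.0919 CPM. Of 33 other chemokine ligands, 12 were in the tables and Ccl25, at 7.93 to 26.1 CPM, was alone in reaching 20 CPM. Ccl1 was at 9.54 CPM at day 5 without cytokine, its highest level, with a UMI in at most 0.180% of the cells of any library. Cxcl10 stayed at or below 2.87 CPM.

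Genes of effector function were counted in the direction opposite to Ccl5 in some comparisons between libraries and in the same direction in others. At day 3 without cytokine against naive cells, 1 of 4 effector genes was higher (Gzmb, a cytotoxic protease, log2 difference 6.42) and 1 lower, as Ccl5 was (Prf1, the gene of perforin, -2.59). Of all 6171 genes, 11.1% were counted higher and 8.31% lower. From day 5 to day 10 with cytokine, where Ccl5 was higher in 6 of 6 pairs, Prf1 was the 1 of 7 counted, on the higher side (1.13), which held 0.0705% of 5676 genes against 1.62% on the lower side. Between days 3 and 5 without cytokine, 0 of 3 effector genes that reached 20 CPM were counted higher and 2 lower (Gzmb, log2 difference -3.74, and Gzma, -1.47), and 0 of 4 genes of T cell receptor response were higher and 3 lower (Irf4, Irf8 and Tnfrsf9). Over all 5785 genes, 3.61% were counted higher and 9.47% lower. With cytokine against none at day 5, Gzmb was the 1 of 4 effector genes counted, on the higher side (3.36, with 836 against 47.2 CPM). That side held 6.06% of 5756 genes, and the lower side 1.67%. Between 50 and 5 IU/mL IL-2, 2 of 7 effector genes were higher (Gzmb 2.63 and Prf1 1.81), 2 of 5 genes of T cell receptor response (Irf8, and Tnfrsf9 by 4.65) and 2 of 10 transcription factor genes linked to chemokine genes (Prdm1 1.68 and Bhlhe40 1.75), with none lower in these lists. Of 8 memory-like genes 3 were lower (Cxcr3 -3.58, Ly6c2 -1.04 and Klrk1 -1.04). Over all 5879 genes, 4.29% were counted higher and 2.70% lower with the IL-2 dose. Klf13, a factor known for Ccl5 transcription in T cells, was at 117, 144 and 103 CPM at 50 IU/mL IL-2 and at 200, 288 and 285 CPM at 5 IU/mL on days 3, 5 and 10, a median log2 difference of -0.99 that is just short of 2-fold. The lists' median log2 differences were 1.52, 0.80, 0.19 and -0.25 beside 0.03 over all genes.

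Between IL-2v and IL-15, 2 of 6 effector genes (Gzmb 2.05 and Tnf 1.40), 2 of 4 genes of T cell receptor response (Irf8 and Tnfrsf9, the latter 3.46) and 2 of 10 transcription factor genes (Prdm1 and Bhlhe40) were counted as higher with IL-2v. Over all 5810 genes, 2.48% were counted higher and 0.585% lower, a split that moved with scaling. Of 8 memory-like genes, Cxcr3, the receptor of interferon-induced chemokines, was the 1 counted as lower (-1.18), in the direction of Ccl5, and none was counted as higher. The median log2 difference of that list was on the other side, at 0.42 beside 0.10 over all genes. At day 5 with cytokine against none Cxcr3 was likewise lower (-1.63; 63.5 against 181 CPM), while Cd44 (1.35) and Il2rb (1.27) were higher.

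The genes whose levels over the 21 libraries were most like Ccl5, among the 5495 genes that averaged 20 CPM or more, were Pdrg1 (Pearson r 0.96), Tprgl (0.95), Mettl23 (0.95), Acp5 (0.95) and Cdk2ap2 (0.94). For Xcl1 they were Sumo2 (0.92), Scamp3 (0.89), Trim12c (0.86), Ms4a6b (0.86) and Taldo1 (0.85). For Ccl4 they were Gabarap (0.76), Sat1 (0.73), Vamp8 (0.73), Traf1 (0.72) and Cst7 (0.71), and for Ccl3 Nfkbia (0.67), Supt4a (0.63), Zfp36l2 (0.61), Syf2 (0.61) and Bbip1 (0.60). Among the members, r was 0.80 for Ccl5 and Xcl1 and 0.72 for Ccl3 and Ccl4, and 0.26 to 0.51 for the other pairs. These correlations are descriptions on the log2(CPM + 1) scale over libraries that differ in activation, day and depth, and the values of Ccl3 rest on few UMIs.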

How the data were processed

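Per the labels, the libraries are single-cell RNA libraries of cultured OT1 T cells; the extraction text of the labels describes sorted tumour-infiltrating cells instead, and the culture text was followed. The authors deposited 1 table of raw counts (whole-number UMI counts per gene symbol and cell barcode) per library; Cell Ranger, Seurat 4.0.1 and 3.0.2 and mm10 are named in the submitters' processing notes, and removal of doublets is not given in the sources used here. Barcodes under 1000 UMIs or 500 genes, or above 10% mitochondrial UMIs, were left out, which removed 2 cells, and no doublet caller was run. UMIs were summed per library and scaled to CPM with exact Poisson intervals; ratios have conditional binomial intervals and shares Clopper-Pearson intervals, all at 95%. The pairs numbered 6 for cytokines (day and dose matched), 3 for doses, 6 for days and 6 for day 5 cytokine libraries, which share 1 control. Genes at 20 CPM or more on average in either arm, whose difference kept its sign over the pairs and had a median of 2-fold or more on log2(CPM + 1), were counted. Shares used cells thinned to 2000 UMIs. With 1 library per condition there is no p-value and no fitted model.

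The genes named are the 4 members, the members of lists of receptors, other ligands, effector, T cell receptor response, transcription factor, memory-like and cell type marker genes, and the 5 genes most like each member. Results for some listed genes are not reported here. The members and lists were chosen with earlier results of these data known, so counts of listed genes beside all genes are descriptions. Alternatives covered cell filters, possible doublets, cells of other lineages, cycling cells, scaling (TMM of edgeR 4.0.16, size factors of DESeq2 1.42.0, totals without ribosomal protein and mitochondrial genes), pseudocount, filter and days. R 4.3.3, Python 3.11.15, numpy 2.4.6, pandas 2.3.3, scipy 1.17.1 and matplotlib 3.10.9 were used. The counting rule and intervals were run on simulated independent Poisson counts. That check left out the clustering of UMIs in single cells, so it cannot show how the intervals hold under such clustering.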

Additional observations from a re-analysis of the deposited data

Results flagged for a closer look

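The step in CPM from day 3 to day 5 had opposite signs with IL-2 and IL-2v for 3 of the 4 members, at both doses of each cytokine. The log2 steps of Ccl4 were 1.99 and 0.81 with IL-2 at 5 and 50 IU/mL and -0.19 and -0.69 with IL-2v, a difference of medians of 1.84. For Ccl3 they were 0.88 and 0.55 against -0.42 and -0.91, a difference of 1.38. For Xcl1 they were 0.36 and 0.14 against -1.17 and -0.86, a difference of 1.27, and the interval of the ratio included no change for Xcl1 with 50 IU/mL IL-2 (1.51 against 1.27 CPM), for Ccl4 with 5 IU/mL IL-2v (1.74 against 2.12 CPM), and for Ccl3 with 50 IU/mL IL-2 (1.79 against 0.909 CPM) and with 5 IU/mL IL-2v (0.217 against 0.627 CPM). These differences were not tested, since each condition had 1 library, and 36 such comparisons were looked at. All 3 rest on levels below 20 CPM. Without the cell with the most Xcl1 UMIs in each library, Xcl1 with 5 IU/mL IL-2 was at 4.80 CPM at day 3 and 5.59 CPM at day 5. The share of thinned cells with Xcl1 went from 0.767% to 0.540% with 5 IU/mL IL-2 and from 0.179% to 0.280% with 50 IU/mL IL-2.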

How the results depend on the processing

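No paired analysis was possible by replicate number, because every condition had 1 library under the same number. No block by that number could be formed and no replicate could be left out. A test over the pairs of libraries of equal day and dose was not run. No called direction of a member reversed, and each of the 9 calls of members held under all of its 11 or 14 alternatives. Of the log2 differences of members 493 stayed within counting error and 107 moved, of the CPM values 657 and 183. Scaling moved the median log2 difference of all genes by up to 0.15 (day 10 against day 5: -0.09, and 0.06 with TMM).

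The numbers of genes counted depended more on the settings. Without the filter on low values, 1579 genes were higher and 1042 lower at day 3 than in naive cells, 358 and 1305 at day 5 than at day 3 without cytokine, 750 and 158 with cytokine at day 5, 259 and 70 with IL-2v against IL-15, and 481 and 370 with 50 against 5 IU/mL IL-2. With a pseudocount of 10 CPM, 260 were lower at day 3 than in naive cells, 112 higher at day 5 than at day 3, 58 lower with cytokine at day 5, 47 higher and 19 lower with IL-2v against IL-15, and 157 higher and 103 lower with the IL-2 dose. At day 10 against day 5 (4 higher and 92 lower), 10 and 250 were counted without the filter, 1 and 51 with the larger pseudocount, and 7 higher with at most 5% mitochondrial UMIs, 9 with TMM or DESeq2 size factors and 8 with the reduced totals. With IL-2v against IL-15, 225 genes were higher without cells above 2 times the median UMIs, 87 higher and 53 lower with TMM, 92 higher with DESeq2 size factors and 84 higher with the reduced totals, those without ribosomal protein and mitochondrial genes. Among cells lacking UMIs of Mki67 and Top2a, 274 genes were lower at day 5 than at day 3 without cytokine and 208 higher with cytokine at day 5. In those cells Ccl5 was at least 2-fold lower in 1 pair of IL-2v against IL-2 (2 in all cells) and in 2 pairs of the IL-2v doses (1 in all cells), and at least 2-fold higher at day 10 than at day 5 in 1 pair (2 in all cells), as with at most 5% mitochondrial UMIs and with the mean CPM of single cells. For the settings not named, the cause was not tested. Depth limits Ccl3 most.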
